A study of Mus musculus with 4 samples.

Results

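Striated muscle contracts when the heads of myosin, carried on the thick filament of the sarcomere, pull on actin of the thin filament. Each myosin molecule is built around a pair of heavy chains, which hold the motor, and several heavy chain genes make isoforms that differ in speed and in the muscle and stage that use them. In the mouse heart, Myh6 encodes the fast alpha chain, which prevails after birth, and Myh7 the slower beta chain, which prevails in the fetal ventricle. Myh7b encodes a divergent slow-type chain, Myh3 the embryonic and Myh8 the perinatal chain of skeletal muscle.

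The striated muscle myosin heavy chains described here are the 5 genes Myh6 (NM_001164171), Myh7 (NM_080728), Myh7b (NM_001085378), Myh8 (NM_177369) and Myh3 (NM_001099635). They are 5 of 20882 genes with a symbol, and were found on the array by their RefSeq identifiers, which gave 8 of 39429 unique probes, with a pair of probes each for Myh6, Myh8 and Myh3. The genes were chosen by their values on these same arrays, so their levels and ratios are a description and carry no test.

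The data are 1-colour Agilent expression arrays of 4 sorted mouse populations. Each population had a single array, so there were no replicates. Flk1+ MPCs were Flk1-positive mesodermal precursor cells sorted at day 4.5 of differentiation of pluripotent stem cells, which the labels call embryonic stem cells. PCBs were PDGFRα+Flk1- cells at day 5.5, formed on mitotically inactive OP9 mouse stromal feeder cells under CsAYTE, a mixture of Cyclosporin A with Y27632 against ROCK, EW7197 against ALK5 and Trolox as antioxidant. sfPCBs were cells of the same gate and day that formed spontaneously without CsAYTE, with DMSO as vehicle. M+CMs were cardiomyocytes at day 10.5 sorted on green fluorescent protein driven by the αMHC promoter, that is, the promoter of Myh6. The level of Myh6 in M+CMs is therefore tied to the sort. Whether M+CMs had received CsAYTE is not stated in their label. The paper that reported the data describes M+CMs as cardiomyocytes that had differentiated from PCBs.

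All 4 arrays lay on 1 slide, between 73.3% and 76.2% of spots were well above background, and no spot was saturated. Values are scaled signals, in arbitrary units, after each array was brought to a common 75th percentile. The error given with a signal or ratio is that of the spot as estimated by the scanner software, and differences between cultures had no estimate. Probes bind their targets with different strength, so a level is compared between populations and not between probes. In these bulk samples fewer cells of a type and less RNA per cell cannot be told apart.

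The labels were checked against defining markers. Of 8 cardiomyocyte markers, 7 were above background in Flk1+ MPCs and in sfPCBs and 8 in PCBs and in M+CMs. Their summed signals were 11491 in Flk1+ MPCs and 8958 in sfPCBs, against 472441 in PCBs and 1557714 in M+CMs. Mesp1, a marker of nascent mesoderm, had a signal of 42204 in Flk1+ MPCs, 179 in sfPCBs and not well above background in PCBs and M+CMs. Both probes for Kdr, which encodes Flk1, were brightest in Flk1+ MPCs. On 1 the signal was 54864 there, with 4559 for sfPCBs, 768 for PCBs and 2126 for M+CMs, and on the other it was 11263, with 6661, 7273 and 7499 in the same order. Pdgfra was at 7237, 3647, 9136 and 918 in the order Flk1+ MPCs, sfPCBs, PCBs, M+CMs.

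Myh6, Myh7 and Myh7b each carry a microRNA within the gene, which was not measured here. The mature sequences are shown because they tie the 3 genes together, with the seed (bases 2 to 8) in capitals. Sequences and positions are from RefSeq on GRCm38.p6.
mmu-miR-208a-3p, within Myh6, chr14:54949072-54949093, minus strand: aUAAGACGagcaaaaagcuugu
mmu-miR-208b-3p, within Myh7, chr14:54975710-54975731, minus strand: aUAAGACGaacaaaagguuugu
mmu-miR-499-5p, within Myh7b, chr2:155622893-155622913, plus strand: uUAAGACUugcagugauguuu
The pair in Myh6 and Myh7 had the same seed, UAAGACG, and the seed of miR-499-5p was UAAGACU.

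Myh6 and Myh7 are adjacent on chromosome 14, Myh7b is on chromosome 2, and Myh3 and Myh8 lie at either side of Myh2, Myh1 and Myh4 on chromosome 11. The promoters of the neighbours Myh6 and Myh7, whose ratios of M+CMs over PCBs differed, and of Myh3, the member that stayed low, are shown from 250 bases before the annotated start to 50 bases from it. Capitals mark CATTCC, read as GGAATG on the opposite strand, and TATAAA.
Myh6, chr14:54966558-54966857, minus strand: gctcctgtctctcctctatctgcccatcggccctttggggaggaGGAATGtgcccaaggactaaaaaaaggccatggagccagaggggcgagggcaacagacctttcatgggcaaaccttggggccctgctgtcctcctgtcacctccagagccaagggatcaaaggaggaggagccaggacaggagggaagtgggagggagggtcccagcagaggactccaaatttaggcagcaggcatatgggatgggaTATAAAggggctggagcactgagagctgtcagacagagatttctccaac
Myh7, chr14:54994577-54994876, minus strand: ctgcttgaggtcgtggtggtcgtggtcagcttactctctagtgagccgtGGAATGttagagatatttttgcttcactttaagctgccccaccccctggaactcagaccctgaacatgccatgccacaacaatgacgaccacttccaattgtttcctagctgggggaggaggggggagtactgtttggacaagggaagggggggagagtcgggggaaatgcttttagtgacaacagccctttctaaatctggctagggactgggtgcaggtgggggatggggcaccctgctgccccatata
Myh3, chr11:67078050-67078349, plus strand: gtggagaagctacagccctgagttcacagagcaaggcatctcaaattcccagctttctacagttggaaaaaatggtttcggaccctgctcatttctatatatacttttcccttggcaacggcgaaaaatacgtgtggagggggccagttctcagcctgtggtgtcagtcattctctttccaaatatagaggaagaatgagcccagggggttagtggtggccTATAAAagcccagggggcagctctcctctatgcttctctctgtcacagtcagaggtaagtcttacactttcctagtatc
With the start base counted as 0, CATTCC, the core of the site that TEAD factors bind, began at -206 in Myh6 and -201 in Myh7. It was in none of the windows of Myh7b, Myh8 and Myh3, nor in a window at a further annotated start of Myh7, and 14.6% of 32544 promoter windows of this length held it on either strand. TATAAA began at 1 in Myh6, where it overlapped a GATA match at -1, at -29 in Myh3 and, on the opposite strand, at -96 in Myh8, and 13.6% of windows held it. Short motifs told little apart, since 57.7% of all windows held GATA, 72.3% held an E-box (CANNTG) and 46.3% held AAGTG, part of the site of Nkx2-5. The MEF2 and CArG motifs, in 0.6% and 1.6% of all windows, matched no member's window. These matches describe the letters of the windows only.

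In cells that reached the PDGFRα+Flk1- state, Myh6, Myh7 and Myh7b were far brighter when CsAYTE had been present. The Myh7 probe (A_55_P2093232) went from a scaled signal of 122 ± 12.7 (spot error) in Flk1+ MPCs and 526 ± 52.7 in sfPCBs to 235857 ± 23586 in PCBs, and M+CMs had 228990 ± 22899. The signal thus stood near its M+CM level in PCBs already, and both day 4.5 and sfPCB signals were far lower. Myh7 had a single probe, so no other probe of the gene stands beside these values. PCBs were 449-fold above sfPCBs (log2 ratio 8.81, spot error 0.20) and 1930-fold above Flk1+ MPCs.

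**Figure D1:**
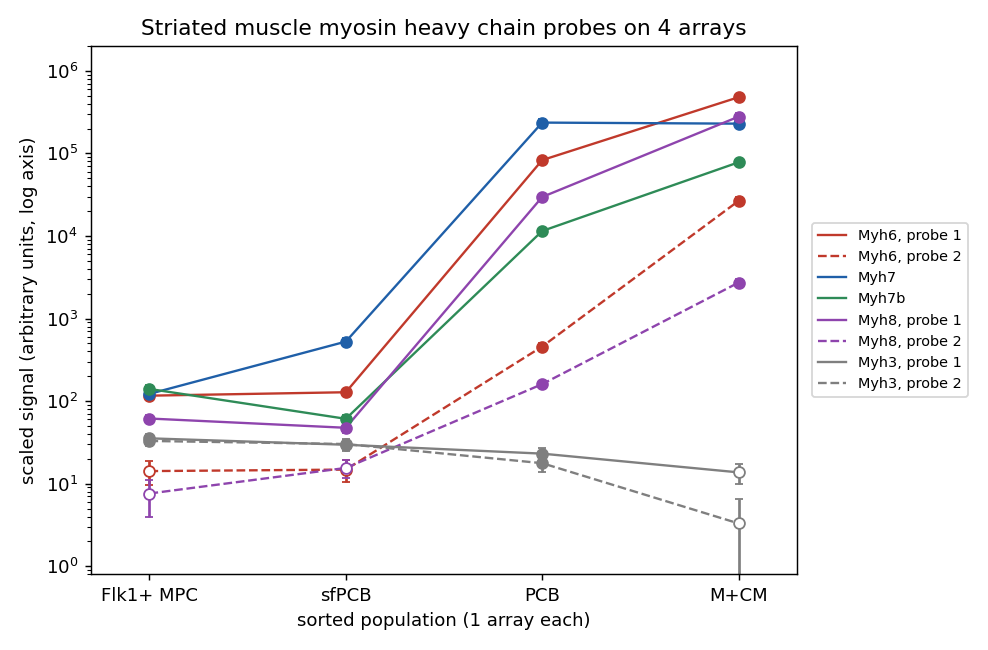
Scaled signal (log axis) of the 8 member probes on the arrays of the 4 populations, 1 array each, with the spot error as bars and open circles where a probe was not well above background. The Myh7 probe reaches 235857 in PCBs and 228990 in M+CMs, the brighter Myh6 and Myh8 probes are higher in M+CMs than in PCBs, and both Myh3 probes are at or below 35.4 throughout; the lower bar of the dimmer Myh3 probe in M+CMs runs off the axis.

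Myh6 was measured by a bright and a dim probe. The bright probe (A_55_P2173952) gave 116 ± 12.1 for Flk1+ MPCs and 128 ± 13.2 for sfPCBs, then 82857 ± 8286 for PCBs and 478627 ± 47863 for M+CMs. The dim probe (A_55_P2140453) was not well above background in Flk1+ MPCs and sfPCBs, at 457.5 ± 45.9 in PCBs and at 26555 ± 2656 in M+CMs. On both probes the order was the same, with the first pair of populations low, PCBs higher and M+CMs highest. The sizes were not the same. PCBs were 647-fold above sfPCBs on the bright probe and at least 30.2-fold above on the dim one, and M+CMs were 5.78-fold above PCBs on the bright probe and 58.0-fold on the dim one.

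The Myh7b probe gave 140.3 ± 14.4 for Flk1+ MPCs and 61.0 ± 6.8 for sfPCBs, against 11474 ± 1147 for PCBs and 77935 ± 7794 for M+CMs. PCBs were 188-fold above sfPCBs (log2 ratio 7.56, spot error 0.22), and M+CMs were 6.79-fold above PCBs. Like Myh6, this gene was brightest in M+CMs.

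Myh8, known from perinatal skeletal muscle, had the same course as Myh6 on its bright probe. That probe (A_51_P143296) gave 61.5 ± 7.2 for Flk1+ MPCs, 47.5 ± 6.0 for sfPCBs, 29629 ± 2963 for PCBs and 278295 ± 27830 for M+CMs, and PCBs were 624-fold above sfPCBs. The dim probe (A_55_P2120161) was not well above background in Flk1+ MPCs and sfPCBs, at 160.4 ± 16.4 in PCBs and at 2722 ± 272 in M+CMs. PCBs were thus at least 10.3-fold above sfPCBs on the dim probe. M+CMs were 9.39-fold above PCBs on the bright probe and 17.0-fold on the dim one.

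By measured signals, the bright Myh8 probe lay closer in profile to the bright Myh6 probe than to the other probe of its own gene. The distance between the mean-centred log2 profiles over the 4 arrays was 0.62 between the bright Myh6 and Myh8 probes, 4.93 between both Myh8 probes and 3.63 between both Myh6 probes. Among 22816 probes searched, the bright Myh6 probe was the second nearest to the bright Myh8 probe, after Myl3 at 0.55, and the dim Myh8 probe was at rank 63. Both dim probes were not above background in Flk1+ MPCs and sfPCBs, so the distances to them and that rank rest on signals near the floor and have no firm size. This ranking by probe was added after the values were seen. The heavy chains are close in sequence, the probes' sequences were not used here, and signal shared between them was not tested.

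Markers of skeletal muscle were read beside Myh8. Their signal summed over 8 genes, most of it from Tnnt3 and Actn3, named after their values were seen, came to 1071 for Flk1+ MPCs, 753 for sfPCBs, 482 for PCBs and 529.6 for M+CMs. The myogenic factors Myog and Myf5 were not well above background on any array, and Myod1 was above it in Flk1+ MPCs alone, at 29.3. A further myogenic factor, Myf6, was above background in sfPCBs, PCBs and M+CMs, at 20.8, 22.8 and 25.5, and not in Flk1+ MPCs. Of 5 such markers compared between M+CMs and PCBs, 3 were 2-fold or more higher in M+CMs and 1 was lower, and of 4 compared between PCBs and sfPCBs none was higher and 2 were lower. Pax7, named after its values were seen, is in both counts by its measured signals. However, it was not above background in PCBs, and its bounds were 1.56-fold and 1.76-fold, both under 2-fold.

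Myh3 was dim in every population. Its probes were at 35.4 ± 5.0 and 32.9 ± 4.7 in Flk1+ MPCs, 29.6 ± 4.6 and 30.2 ± 4.7 in sfPCBs, and 23.1 ± 4.2 and 17.7 ± 3.8 in PCBs. In M+CMs neither was well above background. Between PCBs and sfPCBs the log2 ratios were -0.36 (spot error 0.34) and -0.77 (spot error 0.38), under 2-fold on both, and Flk1+ MPCs were at least 2.31-fold and 2.15-fold above M+CMs.

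In PCBs over sfPCBs, 6 of the 8 member probes lay above a 2-fold ratio and none lay 2-fold below, where 6.13% of 30118 probes were higher and 7.36% lower by as much. At 30-fold the count was 5 of 8, against 0.272% of all probes. The bright Myh6 probe, the bright Myh8 probe, Myh7 and Myh7b held ranks 3, 4, 6 and 11 among the 30118 ratios. Against Flk1+ MPCs, PCBs had 6 of 8 probes higher by 2-fold or more, where 12.8% of 30811 probes were, and 5 at least 30-fold higher by their measured signals, where 1.36% were. The dim Myh6 probe is among the 5, but its bound was 28.7-fold, since it was not above background in Flk1+ MPCs. M+CMs had 6 of 8 probes 30-fold or more above Flk1+ MPCs, against 1.96% of 31539. With normexp background correction the log2 ratio of PCBs over sfPCBs came to 8.05 on the bright Myh8 probe, 6.64 for Myh7b, 2.69 on the dim Myh6 probe and 1.61 on the dim Myh8 probe, so the dim Myh6 probe was then under 30-fold. Without scaling, the shares of all probes higher and lower in PCBs than in Flk1+ MPCs went from 12.8% and 12.1% to 15.0% and 9.17%. Since the genes were chosen on these values, nothing further is read from the counts, and the comparisons share arrays.

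Between sfPCBs and Flk1+ MPCs most member probes compared lay within 2-fold. Of the 6 probes above background in sfPCBs or Flk1+ MPCs, 1 was at least 2-fold higher in sfPCBs, where 13.1% of 30689 probes were. Another 1 was at least 2-fold lower, where 12.6% were. Counts this small do not stand apart from those shares. The higher was Myh7, 4.3-fold above Flk1+ MPCs (log2 ratio 2.10, spot error 0.21), or 1.47 on the log2 scale with normexp. The lower was Myh7b, 2.3-fold below (log2 ratio -1.20, spot error 0.22), which came to -0.86 without scaling of the arrays and -0.83 with normexp, both under 2-fold. The bright Myh6 probe differed by 0.14 on the log2 scale, less than its spot error of 0.21. Without scaling the median ratio of all probes moved by 0.34, and the shares of probes 2-fold higher and lower in sfPCBs went from 13.1% and 12.6% to 17.6% and 7.28%.

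From PCBs to M+CMs the balance among the cardiac chains shifted away from Myh7. Its log2 ratio was -0.04 (spot error 0.20), while M+CMs had 5 of the 8 member probes higher by 2-fold or more, where 20.5% of 31132 probes were, and 1, the dimmer of Myh3, was at least 2-fold lower by its measured signals, where 15.4% were. For that Myh3 probe the bound was 1.16-fold, since it was not above background in M+CMs. Without scaling the shares of all probes were 16.2% higher and 19.4% lower.

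Set against Myh7, the log2 ratio of M+CMs over PCBs was greater by 2.57 (spot error 0.29) on the bright Myh6 probe and by 5.90 on the dim one. It was greater by 2.81 for Myh7b, and by 3.27 and 4.13 for the Myh8 probes. The spot error does not measure the scatter between probes or cultures, and what cultures add to it is unknown. In this same ratio the bright probe minus the dim one was -3.33 for Myh6 and -0.85 for Myh8. Since M+CMs were sorted on the Myh6 promoter, the share of the sort in the Myh6 difference cannot be told apart. Between PCBs and sfPCBs the difference from Myh7 was 0.53 (spot error 0.29) for the bright Myh6 probe and 0.48 (spot error 0.31) for the bright Myh8 probe, and it was -1.25 (spot error 0.30) for Myh7b.

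**Figure D2:**
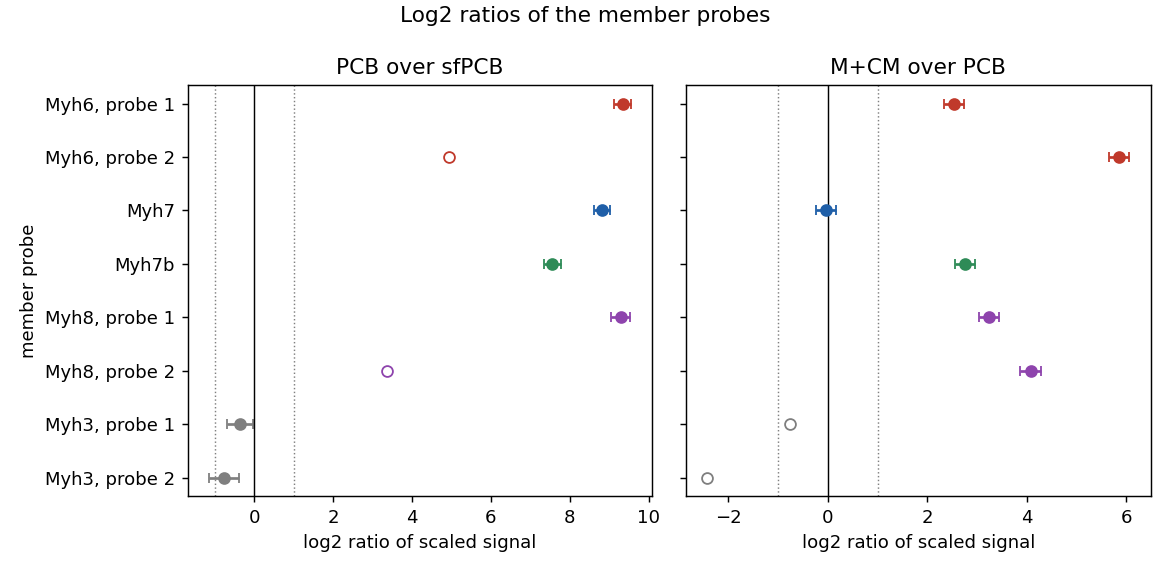
Log2 ratio of scaled signal for the 8 member probes, in PCBs over sfPCBs and in M+CMs over PCBs, with the spot error as bars where both signals were above background and open circles, with no bar, where 1 was not. Dotted lines mark 2-fold; Myh7 is at 8.81 in the first comparison and at -0.04 in the second, where the Myh6, Myh7b and Myh8 probes lie between 2.53 and 5.86.

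Of the other 9 heavy chain genes of the array, 4 were compared in PCBs over sfPCBs and 5 in M+CMs over PCBs. In each comparison 1, Myh11, was at least 2-fold higher, where 6.13% and 20.5% of all probes were. In M+CMs over PCBs 1, Myh9, was at least 2-fold lower, where 15.4% were. Nothing is read from counts this small. Myh1, Myh2 and Myh4, the adult fast skeletal chains that lie between Myh3 and Myh8, and Myh15 were not well above background on any array. Myh13, the chain of the eye muscles, was above it in M+CMs alone, at 24.8. Myh11, of smooth muscle, was not above background in sfPCBs and had 27.1, 45.8 and 214.7 in Flk1+ MPCs, PCBs and M+CMs, at least 3.03-fold above sfPCBs in PCBs and 4.69-fold above PCBs in M+CMs. With normexp or an offset of 50 its ratio of PCBs over sfPCBs was under 2-fold. The nonmuscle chains were present throughout: Myh9 was at 26277, 44977, 28256 and 4969 from Flk1+ MPCs through sfPCBs and PCBs to M+CMs, and Myh10 at 5071, 12880, 9317 and 9192. Both Myh14 probes were dim, the brighter between 294.9 and 530.3.

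**Figure D3:**
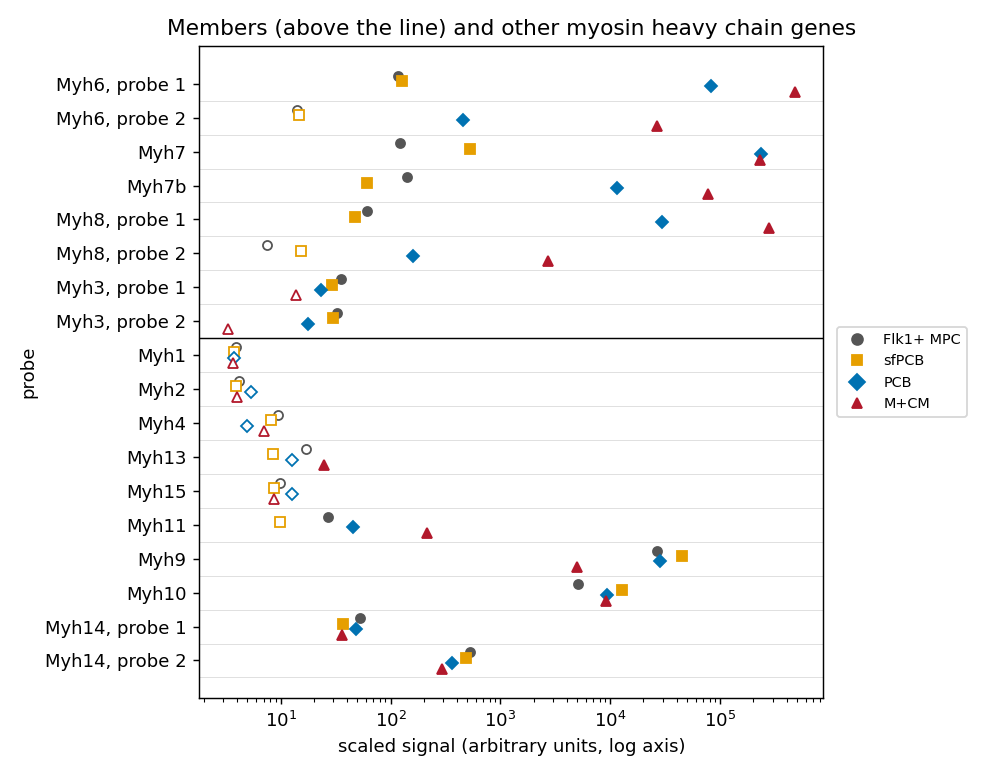
Scaled signal (log axis) of the member probes, above the line, and of the probes of 9 other myosin heavy chain genes, with a symbol for each population and open symbols where a probe was not well above background. The adult skeletal genes Myh1, Myh2 and Myh4 stay at or below 9.4, and Myh9 is lower in M+CMs, at 4969, than in the other populations; levels are not comparable between probes.

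Partners of the heavy chains in the thick filament, and the proteins that fold myosin, were higher along with the members. Of 21 listed genes above background in PCBs or sfPCBs, PCBs had 16 higher by 2-fold or more and 1 lower, with a median log2 ratio of 3.48, where that of all probes was 0.03. From PCBs to M+CMs 14 were higher and 2 lower, with a median of 1.94 against 0.15. Mybpc3, cardiac myosin-binding protein C, gave 51.3 for sfPCBs, 21228 for PCBs and 283146 for M+CMs. Unc45b, a chaperone of myosin, was at 717, 10375 and 19496 in the same order, and Myom1, which crosslinks thick filaments at the M-band, at 83.2, 4220 and 26566. The brighter probe of Smyd1, a methyltransferase needed for sarcomere assembly, was at 1417, 3442 and 6217. Its dimmer probe was at 26.1, 784.7 and 920.5, so the sizes of the steps differed between the probes. PCBs were 2.43-fold above sfPCBs on the brighter probe and 30.1-fold on the dimmer one.

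Thin filament and Z-disc genes did likewise. By the same measure 13 of 17 were higher in PCBs than sfPCBs and 1 was lower (median log2 ratio 3.34), and 16 of 19 were higher in M+CMs than in PCBs (median 2.31). Tnnt2, cardiac troponin T, gave 3176 for sfPCBs, 145595 for PCBs and 403180 for M+CMs, and Actc1, cardiac actin, at 4733, 203317 and 598466. Tnni3, the troponin I of the mature heart, was at 64.1, 227.6 and 105985, and Actn2, which anchors actin at the Z-disc, at 86.2, 976 and 53981. For Tnni3 and Actn2 the larger step was that from PCBs to M+CMs.

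**Figure D4:**
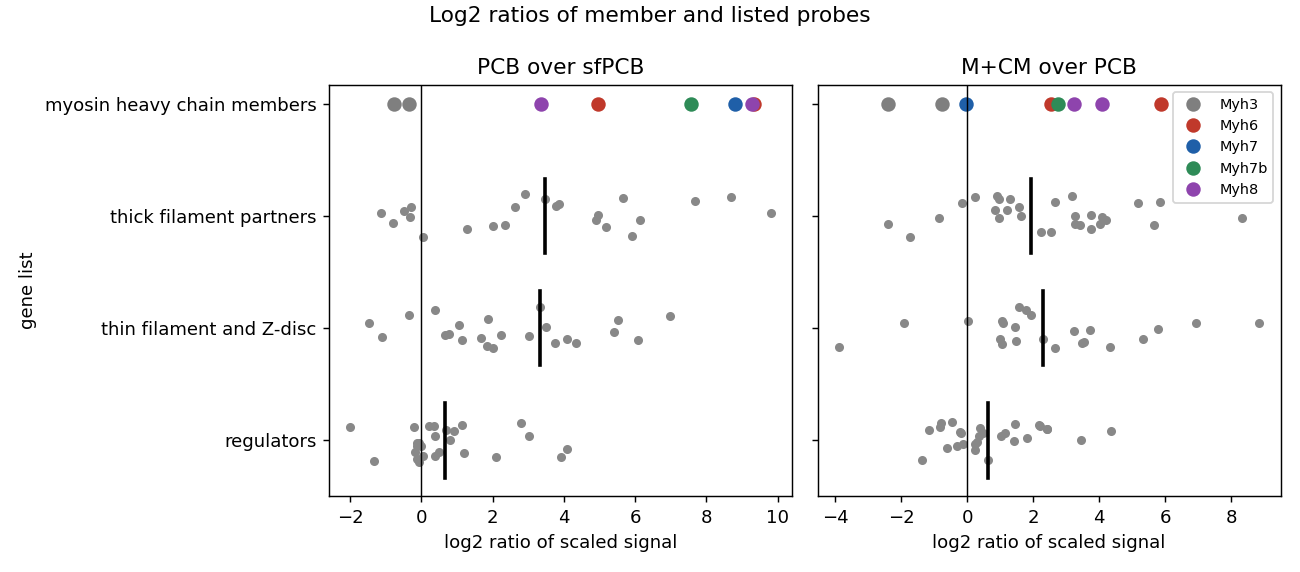
Log2 ratio of scaled signal for the member probes (coloured) and for each probe of 3 gene lists (grey, with vertical jitter), in PCBs over sfPCBs and in M+CMs over PCBs, and the median over genes of each list as a black line. The medians are 3.48, 3.34 and 0.67 in the first comparison and 1.94, 2.31 and 0.64 in the second, from thick filament partners to regulators. The list of regulators also holds the cardiomyocyte marker Nppa.

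The list of factors that act on heavy chain genes had smaller median ratios than these lists. Of 18 genes compared, PCBs had 7 higher than sfPCBs by 2-fold or more and 2 lower (median log2 ratio 0.67). The counts were the same, 7 and 2, from PCBs to M+CMs (median 0.64). The list also held Nppa, a cardiomyocyte marker and not such a factor, named after its values were seen. Nppa was 2.29-fold above sfPCBs in PCBs and 2.72-fold above PCBs in M+CMs, so it is among the higher genes in both counts. Again from Flk1+ MPCs to M+CMs, Nkx2-5 was at 657, 591, 9016 and 47780, and Tbx5 at 687, 397, 2759 and 30265. Both are cardiac transcription factors and were highest in M+CMs. Mef2c was at 19.8, 201, 1616 and 729, and Gata4 at 18271, 6173, 8058 and 11338. Thra, a receptor for thyroid hormone, which raises Myh6 and lowers Myh7 in the heart, was at 4906, 4825, 4957 and 26266 on its brighter probe, a gene named after its values were seen. A link between Thra and the heavy chain signals was not tested.

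Feeder and fibroblast markers differed between the day 5.5 populations in the opposite direction. Of 7 genes, PCBs had 5 lower than sfPCBs by 2-fold or more and none higher, and their summed signal stood at 283238 in sfPCBs against 147034 in PCBs, with 2128 in Flk1+ MPCs and 23724 in M+CMs. All 4 endothelial markers compared were lower in PCBs as well. By the PDGFRα+Flk1- gate, endothelial cells, which carry Flk1, would be left out of both populations. However, all 4 endothelial markers compared between sfPCBs and Flk1+ MPCs were at least 2-fold higher in sfPCBs. Summed over 5 endothelial genes, the signal was 3234 for sfPCBs, against 336 for the day 4.5 cells and 258 for PCBs. How far the gate kept out endothelial or feeder cells was not tested. The part of feeder or endothelial cells in the sfPCB values of the members was not tested.

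The transcripts nearest to each member by profile were searched for over the 4 arrays. Where a gene had a pair of probes, the search used their average. For Myh6 they were Ldb3 and Srpk3, at a distance of 1.0 each, Asb2, Hspb3 and Myo18b. For Myh8 they were Srpk3 at 0.39, Hspb3 at 0.46, Myo18b by both of its probes, and Slc24a2. The probes of each gene differed in profile, and single probes, ranked after the values were seen, had other nearest transcripts. These were Myl3 at 0.40 for the bright Myh6 probe and Pln at 1.23 for the dim one. For Myh8 they were Myl3 at 0.55 and Plppr4 at 0.27. For Myh7b they were Fitm1 at 0.52, Srpk3, Myadml2, Myl1 and Myo18b. Myh7 had no neighbour as close. Its nearest were Casz1 at 1.98, Asb2, Tnnt2, the bright Myh6 probe at 2.44 and Ttn. Those of Myh3 were 2010003K11Rik at 0.04, Rcbtb2, Sox11, Tmem17 and H2ac8. The Myh3 probes lay 1.67 from each other, and neither was above background in M+CMs. Singly, and ranked after the values were seen, they were nearest to Cilk1 at 0.03 and Limd2 at 0.22. With 4 points per profile, and with many of the low signals near background, the likeness is a description, and ranking by Pearson correlation kept no more than 1 of the 5 for any member.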

How the data were processed

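RNA of 4 sorted populations was measured on 1-colour Agilent arrays, 1 per population. The spot intensities that the authors deposited had been background-subtracted in Feature Extraction (version 11.5.1.1) without normalization between arrays, and a table of log2 values came with them, which the deposited intensities match within 0.01 for at least 99.66% of probes. The array design is annotated on mm9. The members and gene lists were chosen with earlier results of these data known.

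Spots that were controls or carried an outlier or manual flag were dropped. Saturation was counted but was not a ground for dropping a spot, and no spot was saturated. Arrays were then brought to a common 75th percentile, and a probe's spots were averaged as log2 values. A probe was above background where a share of 0.5 or more of its spots was called so, and was compared where this held on at least 1 of the 2 arrays. Against a signal not above background a fold is a lower bound, taken from the higher of that signal and the lowest detected signal of the array (15.14 to 15.94). Counts past a fold use the measured signals, also where 1 of them was not above background. List values averaged the probes of a gene. Symbols came from RefSeq for 69.8% of probes. The genes named were the members, the other heavy chain genes, the 5 nearest transcripts per member and the first 4 genes of each list, and any other is said to be chosen after its values were seen. With 1 array per population no test was run, and the number of arrays limits the precision. The counting and profile steps were tested on simulated data.

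Alternatives were quantile normalization, no scaling, normexp correction with an offset of 50, an added offset of 50, other filters, the deposited log2 table and Pearson correlation. Normexp used the median spot signal, chosen after the files were seen to hold no mean signal. Python 3.11.15, numpy 2.4.6, pandas 2.3.3, matplotlib 3.10.9, R 4.3.3 and limma 3.58.1 were used.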

Additional observations from a re-analysis of the deposited data

How the results depend on the processing

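The counts of member probes at least 2-fold higher were the same under quantile normalization, no scaling, normexp, an offset of 50, the other percentile and the deposited log2 table. Counting probes above background on both arrays, an alternative chosen after seeing the data, gave 4 in place of 6 for PCBs over sfPCBs and over Flk1+ MPCs, since the dim Myh6 and Myh8 probes then drop out. The difference between the dim Myh6 probe and Myh7 in M+CMs over PCBs came to 5.60 with normexp, from 5.90. With normexp the log2 ratio of the dim Myh8 probe between sfPCBs and Flk1+ MPCs, below background in both, turned from 1.03 to -0.07. Of 48 member log2 ratios, 47 stayed within their spot error under quantile normalization, 32 without scaling, 13 with the offset and 12 with normexp. Normexp and the offset draw low signals together, by up to 3.33 and 2.89. Without scaling the median log2 ratio of all probes moved by 0.34 for sfPCBs over Flk1+ MPCs, 0.18 for PCBs over Flk1+ MPCs, -0.15 for PCBs over sfPCBs and -0.21 for M+CMs over PCBs. Of 80 list counts 73, and of 112 shares of all probes 74, stayed within 1.5 times. Low signals near background limit the folds of the dim Myh6 and Myh8 probes and of Myh3, whereas the log2 ratio of Myh7 in PCBs over sfPCBs, 8.81, came to 8.74 with normexp and 8.68 with the offset. The comparison of member proteins was not run, nor the slide as a block, since all arrays lay on 1 slide, nor leaving out a replicate. No paired analysis was possible because each population had 1 array.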
